A study of Mus musculus with 12 samples.

Results

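The genes described here encode the proteins of the cytosolic ribosome. They were taken by symbol, as protein-coding genes named Rpl or Rps with a digit, with Rpsa and Rplp0 to Rplp2 and without the Rps6k kinases and names marked as pseudogenes. The rule found 85 genes of the 20551 in the count table, and no expression value was used to choose them. Rpl10l also fits the rule and was not analysed here. Of the 85 members, 51 carry names of the large (60S) subunit and 33 of the small (40S) subunit, and 1, Rps19bp1, encodes a protein that binds RPS19 and is not part of the ribosome. All 85 passed the filter on low counts.

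The RNA came from airway macrophages (AMs) of 6-week-old C57BL/6 mice that were wild type (WT) littermates or carried the Scnn1b transgene (Scnn1b-Tg), which overexpresses a sodium channel subunit in airway epithelium under the club cell secretory protein promoter and leads to mucus obstruction. Lavages of 3 to 4 animals were pooled, and the AMs were kept for 12 h in medium alone or with lipopolysaccharide (LPS) at 100 ng/ml. The sources differ on isolation, since the labels describe lavage cells that adhered to a plate and the study's methods describe a sort for CD45.2, Siglec-F and CD11c before LPS, so the route of these cells is not settled here. Each genotype thus gave a medium group and an LPS group, 4 groups of 3 libraries, from WT pools 16, 17 and 18 and Scnn1b-Tg pools 17, 18 and 19, and pools of the same number in the 2 genotypes were different animals. The batch, which is the date of library preparation in the study's methods, was 1 for WT 16, WT 17 and Tg 17 and 2 for WT 18, Tg 18 and Tg 19.

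Ribosomal proteins are made in matched amounts and assembled with ribosomal RNA in the nucleolus, and together they form the particle that translates messenger RNA. Their messengers are short, abundant in growing cells and in vertebrates carry a terminal oligopyrimidine tract, a run of C and U at the very 5′ end, through which the growth-control kinase mTOR regulates their translation. In macrophages, LPS is known to change which messengers are translated as well as which are transcribed, and transcript levels alone, as measured here, do not report translation.

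The start of these genes is shown first because the oligopyrimidine tract is the best known feature that they share and the rule did not use it. RefSeq start windows were found for 65 of the members, in 77 windows because a few genes have more than 1 start. In the 75 bases from 25 before to 50 after the annotated start, on the transcribed strand, a run of at least 8 pyrimidines was present in 67.5% of the members' windows and in 27.2% of all 32851 windows. The letters CTTTCC or CTTTTC were present on that strand in 37.7% of the members' windows and in 5.96% of all windows, and on either strand in 41.6% and 11.5%. The 75 windows of mitochondrial ribosomal protein genes, whose products serve a separate ribosome, held such a run in 26.7% and those letters on the transcribed strand in 6.67%. Mitochondrial genes were therefore near the share of all windows and cytosolic genes above it. The following 30 bases run 5′ to 3′ on the transcribed strand of GRCm38.p6 from 10 before to 20 after the RefSeq start, with the longest pyrimidine run in capitals, or the first of several that tie. Rps6, Rplp2 and Rpl13a are shown for long runs near the start, and Rpl24, Rpl6 and Rpl7l1 because their expression is described below.
Rps6, chr4:86857348-86857377, minus strand: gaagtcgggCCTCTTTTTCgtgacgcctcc
Rplp2, chr7:141447641-141447670, plus strand: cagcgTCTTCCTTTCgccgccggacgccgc
Rpl13a, chr7:45128726-45128755, minus strand: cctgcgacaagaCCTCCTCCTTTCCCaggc
Rpl24, chr16:55966265-55966294, plus strand: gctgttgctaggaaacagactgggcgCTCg
Rpl6, chr5:121204491-121204520, plus strand: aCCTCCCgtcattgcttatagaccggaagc
Rpl7l1, chr17:46782637-46782666, minus strand: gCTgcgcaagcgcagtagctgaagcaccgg
The runs shown were 10 bases long in Rps6 and Rplp2 and 14 in Rpl13a, 6 in Rpl6, 3 in Rpl24 and 2 in Rpl7l1. A start annotated a few bases away from the one a cell uses moves the run out of place, so a short run says only that no longer one is in this window.

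Library depth was 48.2 to 60.9 M deposited counts. The cell preparation expressed the AM genes Cd68, at 2720 CPM (counts per M counts of the library, TMM-scaled) in WT medium, and Chil3, at 9971 CPM. Summed over their lists, markers of T and NK cells stayed at or below 1.16 CPM in every library and those of B cells at or below 1.89 CPM. Those of erythroid cells stayed at or below 0.301 CPM, and monocyte markers were at 0.937 to 1.67 CPM in medium and 1.23 to 2.49 CPM in LPS. Of 12 AM markers, 7 fell and 2 rose in WT with LPS, and 8 fell and 2 rose in Scnn1b-Tg. Their median log2 changes were -1.64 and -1.91. Their sum was 11211 to 20228 CPM over all libraries, and Chil3 made up most of it in WT medium. Eosinophil markers were at 9.003 to 20.8 CPM in medium and 1.44 to 8.44 CPM in LPS, and dendritic cell markers at 0.860 to 1.48 and 2.16 to 3.63 CPM, with no overlap of medium and LPS in either. Neutrophil markers were at 2.00 to 9.82 CPM in medium and 8.17 to 14.9 CPM in LPS. S100a8, in the neutrophil list, rose with LPS in both genotypes, with means of 2.86 and 7.32 CPM in WT AMs and 4.53 and 11.1 CPM in Scnn1b-Tg AMs, and the neutrophil granule gene Ngp was at 0 in 11 of 12 libraries. Epithelial markers separated the genotypes, at 71.9 to 110 CPM in the WT libraries and 29.9 to 64.7 CPM in the Scnn1b-Tg libraries. A sort for CD45.2, Siglec-F and CD11c would remove epithelial cells, lymphocytes and neutrophils. The part of these cells in the results was not tested. The transgene's own gene, Scnn1b, was at 0 to 0.755 CPM in all libraries and did not separate the genotypes. In bulk RNA, fewer cells of a type and less RNA per cell cannot be told apart.

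Together the 85 members held about 1% of all counts. Their summed share was 1.197, 0.933 and 1.10% in the WT medium libraries of pools 16, 17 and 18, and 1.31, 0.820 and 1.30% in the WT LPS libraries of the same pools. It was 0.995, 1.16 and 1.03% in the Scnn1b-Tg medium libraries of pools 17, 18 and 19, and 0.907, 1.33 and 1.09% with LPS. The lowest library of each of the 4 groups was the one from a pool numbered 17, and the groups overlapped in every comparison. Group means were 1.08 ± 0.133% in WT medium, 1.14 ± 0.281% in WT LPS, 1.06 ± 0.0862% in Scnn1b-Tg medium and 1.11 ± 0.211% in Scnn1b-Tg LPS (SD, n = 3 each). The differences between these means were smaller than the spread between replicates. The 60S and 40S members moved in parallel, at 0.632 ± 0.0765% and 0.441 ± 0.0563% in WT medium and 0.681 ± 0.159% and 0.460 ± 0.121% in WT LPS (SD, n = 3).

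**Figure D1:**
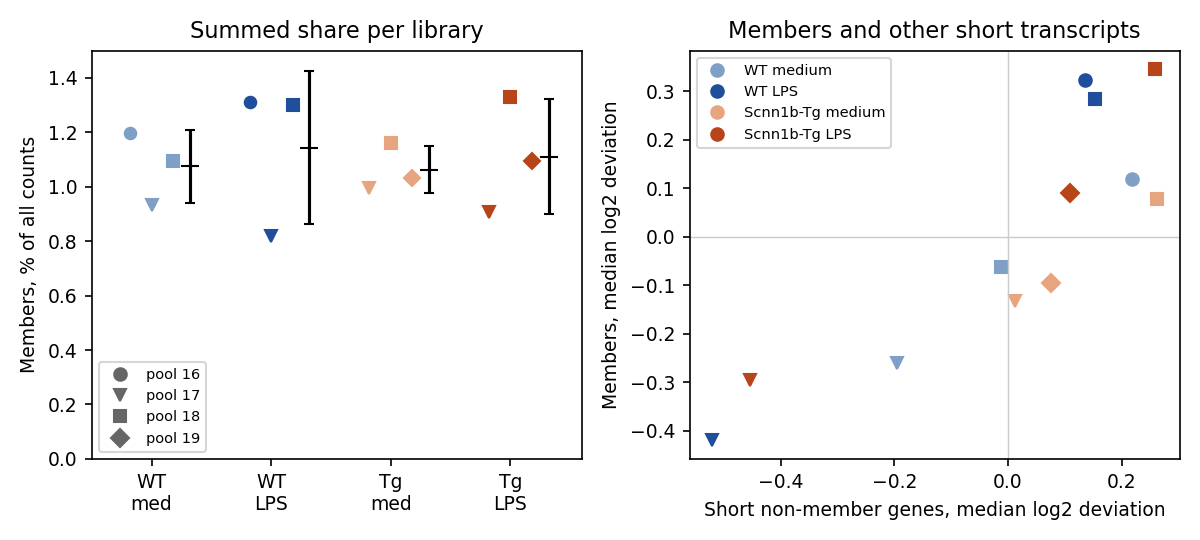
Left, summed share of all counts held by the 85 members, in percent, for each library, with the group mean and SD (n = 3) in black. Right, for each library the median over members of the log2(CPM + 0.5) deviation from the gene's mean over 12 libraries, against the same median over 128 other genes with short transcripts. The 4 libraries from pools numbered 17 (triangles) are the lowest of their groups in the left plot, and the WT LPS and Scnn1b-Tg LPS libraries of those pools lie at the lower left of the right plot, at -0.42 and -0.29 for members.

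Most of the variation of the members was shared and followed the library. In a principal component analysis of the members' log2 levels, the first component held 77.2% of the variance, and the pool number accounted for 73.6% of it and treatment for 4.49%. The second component held 12.7%, and treatment accounted for 90.9% of it. The members' median within-group SD was 0.31 on the log2 scale, against 0.21 for all genes tested, and fell to 0.12 once the median member of each library had been subtracted. Of 85 members, 84 were above their own mean in WT LPS 16, 84 in Scnn1b-Tg LPS 18, 4 in WT LPS 17 and 5 in Scnn1b-Tg LPS 17. Nearly all members were thus above their mean in the first pair of these LPS libraries and below it in the second.

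Other short transcripts moved with the members across libraries. For 128 non-members with a coding transcript of at most 700 bases and a mean over 100 counts, the median log2 deviation was -0.52 in WT LPS 17 and -0.45 in Scnn1b-Tg LPS 17, against 0.14 in WT LPS 16 and 0.26 in Scnn1b-Tg LPS 18. For 3310 non-members with transcripts over 4000 bases it had the opposite sign in these libraries, at 0.21, 0.16, -0.05 and -0.13. In medium, the short non-members were at -0.20 in WT 17 and 0.01 in Scnn1b-Tg 17, each the lowest of its group. The long non-members were at 0.10 and 0.11 there, each the highest of its group. The LPS libraries numbered 17 therefore stood apart by transcript length over genes outside the ribosome too, and the medium libraries of those pools did so by less. Models with the short non-members as a covariate are given with the LPS comparison.

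**Figure D2:**
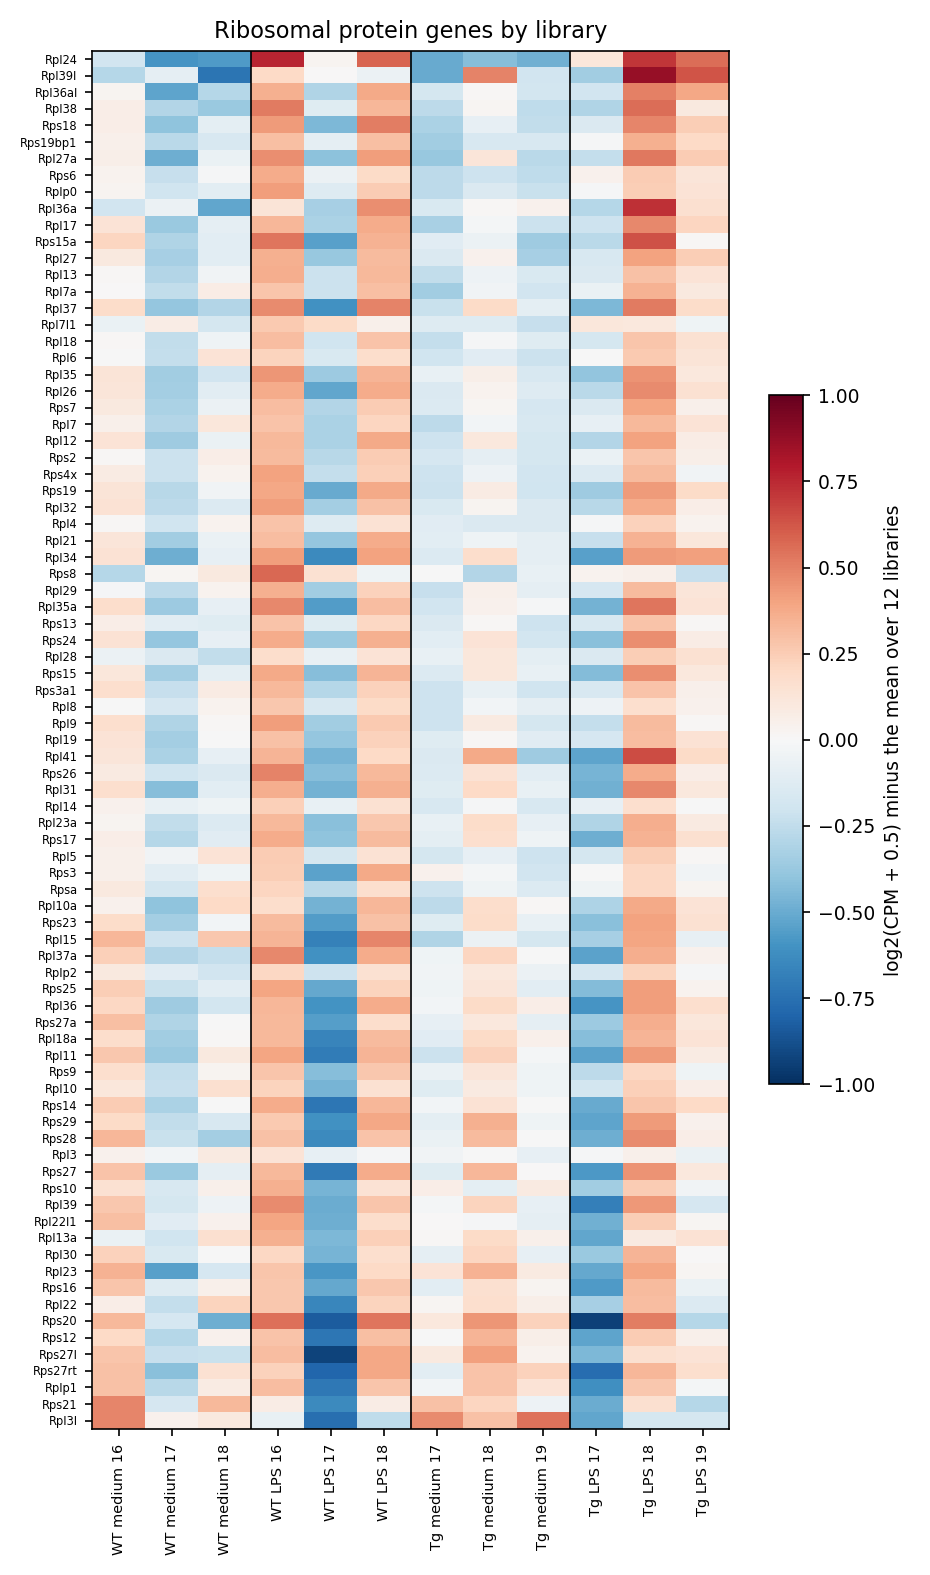
Log2(CPM + 0.5) of 83 of the members minus its mean over the 12 libraries, in columns by group and pool, with rows ordered from the largest to the smallest sum of the 2 fitted LPS changes. The columns WT LPS 17 and Tg LPS 17 are blue in most rows, while Rpl24, in the top row, is blue in every medium column and in no LPS column.

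The level of the messengers differed widely among members. Compared per length, as mean CPM per kb of the longest coding transcript over the 12 libraries, the median member stood at 114, with quartiles of 61.7 and 176. Among the 4 highest were Rplp0 at 540 ± 84.9, Rpl13 at 520 ± 85.5 and Rplp1 at 336 ± 73.4 CPM per kb (SD over 12 libraries). Rplp0 and Rplp1 encode proteins of the ribosomal stalk, which recruits translation factors. The difference between Rplp0 and Rpl13 was smaller than their spread, and of the 84 neighbouring pairs in the order only 5 differed by more than the larger SD of the pair. The 4 lowest were Rpl3l at 0.271 ± 0.172, Rpl39l at 1.86 ± 0.865, Rpl22 at 7.48 ± 1.41 and Rps15a at 8.57 ± 2.30 CPM per kb. The longest annotated transcript exceeded 3 times the coding length in 15 members, which lowers their values. Rps15a was at 114 CPM per kb of coding length and rose in the order from place 82 to place 70, and Rpl22 remained at place 82 or 83 on both scales. Without regard to length, 82 members had a mean of at least 10 CPM. Between the lowest and the highest library the members other than Rpl3l varied 1.17-fold (Rpl3) to 4.61-fold (Rpl39l), with a median of 1.85-fold.

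Several members are copies of others that are used in particular tissues. Rpl3l, a paralog of Rpl3 known from heart and skeletal muscle, was at 0.372 CPM on average over the 12 libraries, and Rpl3, which lines the peptidyl transferase centre, was at 296.8 CPM. Their coding sequences were 74.3% identical over 1206 aligned bases with no identical run over 22 bases. The first 60 coding bases, read 5′ to 3′ from GENCODE transcripts on mm10 with the 13 differing bases in capitals, are printed because Rpl3l was the member that fell.
Rpl3, chromosome 15, minus strand: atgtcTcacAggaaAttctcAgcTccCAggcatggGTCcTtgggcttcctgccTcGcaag
Rpl3l, chromosome 17, plus strand: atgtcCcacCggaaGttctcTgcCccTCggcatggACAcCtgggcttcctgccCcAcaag
Rpl39l, a paralog of Rpl39 with 84.97% coding identity that is known from testis, was at 1.49 CPM against 25.8 CPM. By contrast, Rpl36al and Rpl22l1 were at higher levels than Rpl36a and Rpl22, at 122 against 17.8 CPM and 25.1 against 15.4 CPM, with coding identities of 87.7% and 72.7%. Rps27l, a target of p53, was at 87.4 CPM beside 55.0 CPM for Rps27. Rpl7l1, which resembles Rpl7 and acts in ribosome assembly, was at 127 CPM beside 185 CPM. Rps27rt was at 4.19 CPM, and its 252 coding bases were identical to those of Rps27, so reads in the coding sequence cannot be told apart and its value is uncertain. Exons of 39 members overlapped another gene, and counting ignored strand.

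LPS was compared with medium within each genotype to describe how the messengers of the ribosome respond to a bacterial product. In WT AMs, 2 members rose, Rpl24 and Rpl7l1, and none fell (edgeR quasi-likelihood test, adjusted p under 0.05 over all 13729 genes tested). In the same comparison 15.5% of all genes tested rose and 16.2% fell. In Scnn1b-Tg AMs, 6 members rose, among them Rpl24, Rps19bp1, Rps6, Rpl6 and Rpl7l1, and 1, Rpl3l, fell. There 19.3% of all genes rose and 18.7% fell. The members' fitted changes were mostly positive and small, with a median log2 fold change of 0.17 in WT and 0.13 in Scnn1b-Tg against 0.00 and -0.02 over all genes tested, and with 73 and 62 of 85 members above 0. Outside Rpl3l, the changes ran from -0.38 (Rps21) to 0.92 (Rpl24) in WT and from -0.42 (Rps20) to 0.95 (Rpl24) in Scnn1b-Tg. With library totals in place of TMM factors, which moved the median of all genes to -0.08 and -0.12, the members' medians were 0.08 and 0.03, with 59 and 48 above 0. In WT, 2 members (Rpl24 and Rpl39l), and in Scnn1b-Tg 9, had no LPS library as low as any medium library, against 18.7% and 22.3% of genes tested.

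The calls depended on the model and on the libraries used. With the pool as a block, 10 members rose in WT and 18 rose in Scnn1b-Tg, with none falling in WT and Rpl3l falling in Scnn1b-Tg, and 9 of them rose in both genotypes (among them Rpl13, Rpl24, Rpl27a, Rpl36al, Rpl7l1, Rplp0, Rps19bp1 and Rps6). In that model 18.9% and 22.3% of all genes rose. Without the 4 libraries of pools numbered 17, 7 members rose in WT and 14 in Scnn1b-Tg, and none fell, while 11.7% and 15.8% of all genes rose. With the median of the short non-members in each library as a covariate, chosen after the data were seen, 44 members rose in WT and 52 in Scnn1b-Tg, against 19.7% and 23.1% of all genes. With that covariate centred within groups, 29 rose and 2 fell in WT and 27 rose and 6 fell in Scnn1b-Tg. There 40.7% and 47.0% of all genes were called in either direction, in each genotype a larger share than of the members. Before centring, the covariate's group means were 0.003 and -0.08 in WT medium and LPS, and 0.12 and -0.03 in Scnn1b-Tg. What this difference adds to the treatment estimates was not tested. The share of members that rose was thus below that of all genes in the first model and above it with the uncentred covariate. No test of these shares was made. Leaving out WT LPS 17 alone gave 12 rises and no fall among the 85 members in WT, while 27.5% of all genes were called in either direction. Leaving out WT LPS 16 gave 1 rise, no fall and a member median of -0.03, while 31.1% of all genes were called in either direction. Within pools, the median member changed by 0.22, -0.09 and 0.33 in WT pools 16, 17 and 18 and by -0.13, 0.27 and 0.18 in Scnn1b-Tg pools 17, 18 and 19 (log2 of CPM + 0.5). In both pools numbered 17 the median member was thus lower with LPS, while it was higher in the other 4. The median of the 128 short non-members changed by -0.08, -0.30, 0.13, -0.46, -0.05 and 0.01 in the same pools. In 6 of 6 pools the members stood above these short non-members, by 0.17 to 0.33.

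**Figure D3:**
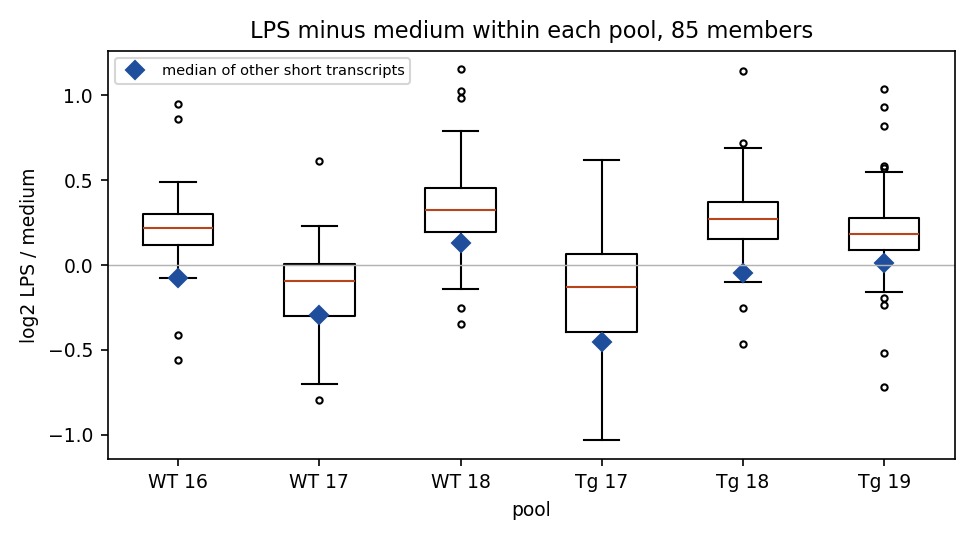
Log2 ratio of LPS to medium (CPM + 0.5) within each of the 6 pools. Boxes show the median (red) and quartiles of the 85 members, whiskers reach to 1.5 times the interquartile range and circles lie beyond it, and diamonds mark the median of 128 other short transcripts. The box medians are below 0 in WT 17 and Tg 17, at -0.09 and -0.13, and each diamond lies below the box median of its pool.

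Rpl24, a large subunit protein that forms a bridge to the small subunit, had the largest rise. Its level was 101, 76.7 and 77.8 CPM in WT medium (pools 16, 17 and 18) and 197, 118 and 174 CPM in WT LPS. It was 81.3, 85.8 and 82.9 CPM in Scnn1b-Tg medium (pools 17, 18 and 19) and 125, 190 and 171 CPM in Scnn1b-Tg LPS. The lowest LPS library was above the highest medium library over all 12 libraries, which held for 13% of all genes tested in this direction and for no other member. The log2 fold change of Rpl24 was 0.92 ± 0.19 (SE) in WT and 0.95 ± 0.19 in Scnn1b-Tg, with adjusted p = 0.00365 and 0.00255 in edgeR. It rose in 6 of 6 pools, by 0.61 to 1.15, and its change was 0.78 and 0.62 in batch 1 and 1.15 and 1.09 in batch 2 for WT and Scnn1b-Tg. The gene lies at chr16:55966275-55971435 (mm10, plus strand), and its exons overlap those of Gm28037, which was at 0.0342 to 11.6 CPM in medium and 2.06 to 23.4 CPM in LPS. With the counts of both genes added, Rpl24 still rose in both genotypes.

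Rps6, the small subunit protein that S6 kinases phosphorylate, was at 220, 183 and 212 CPM in WT medium and 278, 206 and 246 CPM in WT LPS. It was 179, 186 and 180 CPM in Scnn1b-Tg medium and 221, 256 and 234 CPM in Scnn1b-Tg LPS. The 3 Scnn1b-Tg LPS libraries were above the 3 medium libraries, and the WT groups overlapped. The log2 fold change of Rps6 was 0.38 ± 0.11 (SE) in Scnn1b-Tg (edgeR adjusted p = 0.0177) and 0.25 ± 0.11 in WT (adjusted p = 0.116).

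Rpl7l1 was the other member that rose in both genotypes. It was at 121, 133 and 112 CPM in WT medium and 152, 144 and 131 CPM in WT LPS, and at 116, 115 and 108 CPM and 137, 136 and 123 CPM in the Scnn1b-Tg groups. The WT groups overlapped by 1 library each and the Scnn1b-Tg groups did not overlap. The log2 fold change of Rpl7l1 was 0.22 ± 0.07 (SE) in WT (edgeR adjusted p = 0.0419) and 0.22 ± 0.07 in Scnn1b-Tg (adjusted p = 0.0350). Unlike most members it was not low in the libraries numbered 17.

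Rps19bp1 rose from 21.5, 24.6 and 24.7 CPM to 27.3, 35.4 and 31.7 CPM in Scnn1b-Tg AMs, by 0.41 ± 0.13 (log2, SE, edgeR adjusted p = 0.0255). Rpl6, a large subunit protein, rose from 136, 144 and 135 CPM to 156, 188 and 171 CPM in the same AMs, by 0.31 ± 0.11 (log2, SE, edgeR adjusted p = 0.0430). The groups did not overlap for either gene. In WT the changes of Rps19bp1 and Rpl6 were 0.30 ± 0.13 and 0.12 ± 0.11 (log2, SE, edgeR adjusted p = 0.102 and 0.448).

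Rpl3l was the member that fell. It held 38, 18 and 20 counts in WT medium and 15, 0 and 11 in WT LPS, and 39, 28 and 39 in Scnn1b-Tg medium and 5, 13 and 13 in Scnn1b-Tg LPS. All 6 LPS libraries lay below all 6 medium libraries, which held for 1 of the 85 members, and the share of all genes in this direction was not counted. Of these LPS libraries 2, both numbered 17, were at or under 8 counts, about the worth of 3 reads. The fitted log2 change of Rpl3l was -1.74 ± 0.58 (SE) in Scnn1b-Tg (edgeR adjusted p = 0.0354) and -1.58 ± 0.64 in WT (adjusted p = 0.0873), and it depends on the prior count because a group held a 0. Its call in Scnn1b-Tg was lost in 12 of the 27 other settings that tested it. With a mean of at least 50 counts required, or with counts divided by 5, it did not pass the filter and 84 members were tested.

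**Figure D4:**
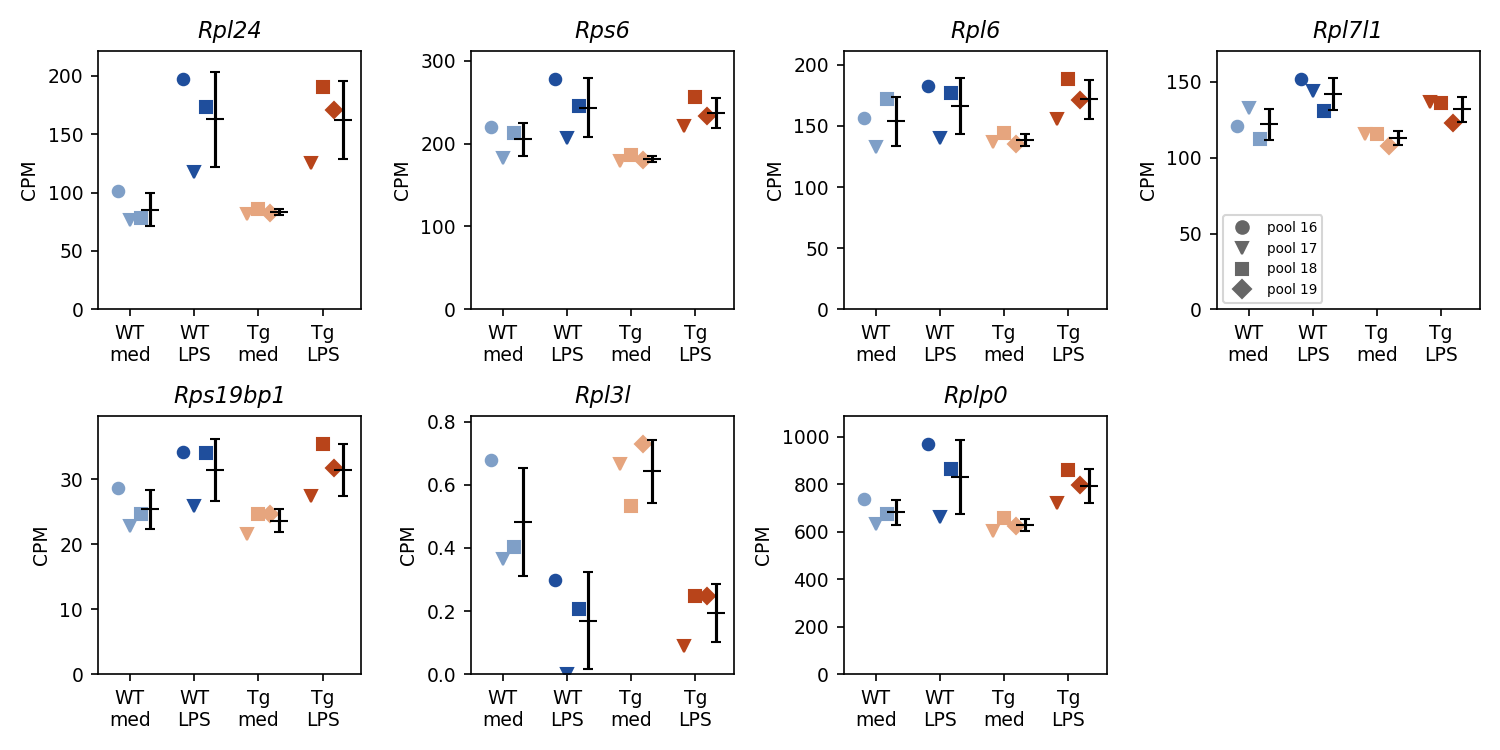
CPM by library for 6 of the members called in an LPS comparison and for Rplp0, the member with the highest level. Symbols mark the pool and black bars the mean and SD (n = 3). Rpl24 lies higher in all LPS libraries than in all medium libraries, and Rpl3l lower.

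Members without a call showed a range of values. Rplp0 was at 605 to 738 CPM in the medium libraries and 662 to 968 CPM in the LPS libraries, and its log2 changes were 0.29 ± 0.12 and 0.33 ± 0.12 (SE) with adjusted p = 0.108 and 0.0558 in edgeR. Rpl5 and Rpl11, which together bind the p53 ligase Mdm2, had changes of 0.03 and 0.05 in WT and 0.19 and 0.01 in Scnn1b-Tg. Rpl13a, which takes part in silencing of inflammatory messengers, changed by 0.12 ± 0.18 and -0.18 ± 0.18 (log2, SE), and Rplp1 by -0.04 ± 0.24 and -0.24 ± 0.24. Rpsa, whose product is also known as a laminin receptor, changed by 0.02 and 0.19, and Rps19, whose human counterpart is mutated in Diamond-Blackfan anaemia, by 0.18 and 0.21. Rps27a, made as a fusion with ubiquitin, changed by 0.00 and 0.07, and Rpl38 by 0.45 and 0.31. Rps3, Rps4x, Rpl10 and Rplp2 changed by 0.11, 0.19, -0.03 and 0.12 in WT and by 0.11, 0.21, 0.06 and 0.01 in Scnn1b-Tg. None of these passed the test.

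Subtracting the median member of each library left a few members that moved apart from the rest. On this scale, Rpl24 was higher in all 6 LPS libraries than in all 6 medium libraries, by 0.76 on average (log2). Rps21, Rpl30 and Rpl3l were lower in all 6, by 0.53, 0.20 and 0.81. Rps21 was at 15.9 to 25.4 CPM in medium and 11.3 to 20.1 CPM in LPS before the subtraction. These values are a description chosen after the data were seen and carry no test. How many of all genes separate in this way on this scale was not counted.

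The genotypes were compared in each condition to ask whether AMs from obstructed airways differ in these messengers. No member passed the test in medium or in LPS. In medium, 0.335% of all genes passed, and in LPS 0.051%. DESeq2 called no member either, while it called 3.65% of all genes in medium and 1.06% in LPS. In the reported model no member had an unadjusted p under 0.05 in either comparison, though some did in other settings. The lowest in the reported model was Rpl5 in medium, with a log2 fold change of -0.25 ± 0.12 (SE) and adjusted p = 0.380 in edgeR. The epithelial markers, whose sums did not overlap between the genotypes, had fitted changes below 0 for 6 of 6 tested markers in each condition, with medians of -0.46 in medium and -1.06 in LPS and none past the threshold, and their part in these comparisons was not tested. Rpl5 was also the 1 member whose Scnn1b-Tg medium libraries all lay below the WT medium libraries, where 9.38% of genes did, and in LPS 3.39% of genes and no member did. The members' median log2 fold change was -0.07 in medium and -0.11 in LPS, with 68 and 81 of 85 below 0, against medians of 0.01 and 0.00 over all genes. These signs turned with the terms in the model: with the pool number in place of the batch the medians were 0.14 and 0.08. That term matches different animals across the genotypes, and WT 16 and Tg 19 have no partner of the same number. Without WT LPS 16 or Scnn1b-Tg LPS 17 the median in LPS was 0.05 or 0.02, and without WT medium 16 the median in medium was 0.06.

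The difference between the LPS responses of the genotypes was tested directly by an interaction term. No member passed, 0% of genes tested did, and no member had an unadjusted p under 0.05 in the reported model. DESeq2 called no member, while it called 0.561% of all genes. For Rpl6, called in Scnn1b-Tg and not in WT, the interaction was 0.19 ± 0.15 (log2, SE, edgeR adjusted p = 0.957). The responses of the genotypes were thus not shown to differ for any member.

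**Figure D5:**
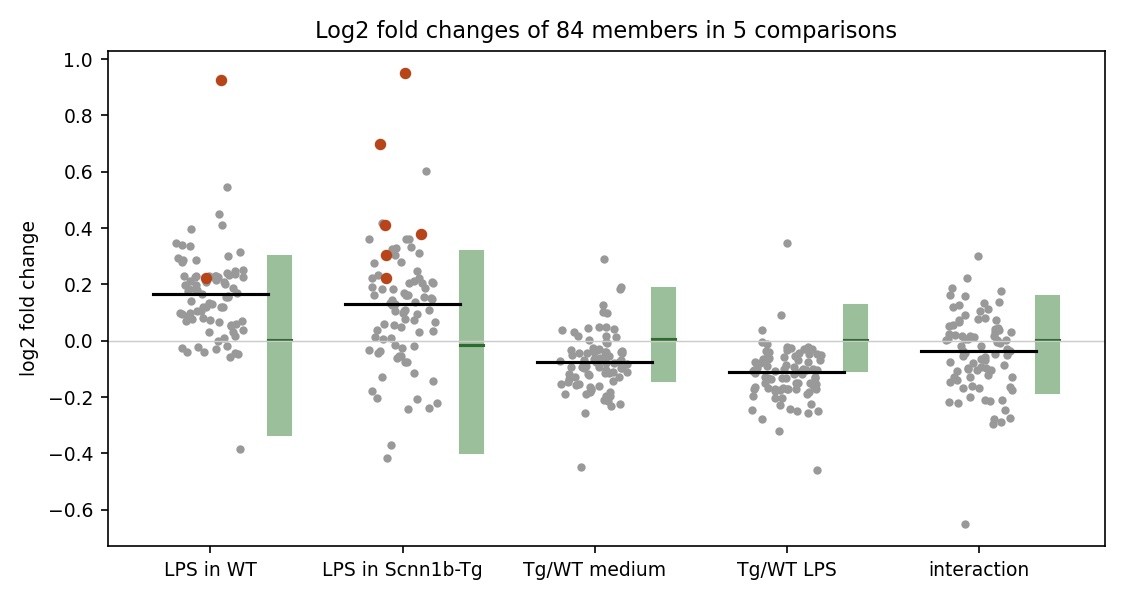
Fitted log2 fold changes of 84 members (Rpl3l, at few counts, is left out) in the 4 comparisons and the interaction. Larger red-brown points have adjusted p under 0.05, black lines mark the median of the 85 members, and green boxes show the quartiles of all 13729 genes tested with their median. The members' medians are 0.17 and 0.13 for LPS, and -0.07, -0.11 and -0.04 for the other 3.

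Genes that serve the ribosome without being part of it were read beside the members. Of 44 genes of ribosomal RNA synthesis and ribosome assembly, 19 rose in WT and 26 in Scnn1b-Tg with LPS, and none fell, with median log2 changes of 0.31 and 0.35. Rrs1, an assembly factor of the large subunit, rose by 1.00 ± 0.07 and 1.36 ± 0.07 (log2, SE), with group means of 62.6 and 125 CPM in WT AMs and 50.9 and 130 CPM in Scnn1b-Tg AMs (edgeR adjusted p = 1.58e-06 and 1.26e-07). Eif6, which keeps the subunits apart until the large subunit is mature, rose by 0.99 ± 0.07 and 1.24 ± 0.07. Grwd1, an assembly factor that binds Rpl3, rose by 0.54 ± 0.13 and 0.89 ± 0.13. Nob1, the nuclease of the last cut in small subunit RNA, rose by 0.57 ± 0.11 and 0.68 ± 0.11. In contrast to the members, more than 4 in 10 of these genes passed the test in each genotype. Of all genes tested, 31.8% and 38.1% passed in either direction. The difference of these genes from the members was not tested.

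Of 20 tested regulators of ribosomal protein synthesis, 7 rose in WT, and 9 rose and 1, Eif4ebp2, fell (by 0.52 on the log2 scale) in Scnn1b-Tg. Among all genes tested, 15.5% rose in WT, and 19.3% rose and 18.7% fell in Scnn1b-Tg. Mdm2, the p53 ligase that free Rpl5 and Rpl11 bind, rose by 1.00 ± 0.07 and 1.12 ± 0.07 (log2, SE). Eif4ebp1, a cap-binding inhibitor that mTOR phosphorylates, rose by 0.68 ± 0.14 and 0.91 ± 0.14. Larp1, which binds the oligopyrimidine tract, rose by 0.64 ± 0.13 and 0.77 ± 0.13, with means of 214 and 333 CPM in WT AMs and 206 and 350 CPM in Scnn1b-Tg AMs. Eif4e, the cap-binding protein, rose by 0.52 ± 0.08 and 0.95 ± 0.08. Of 19 translation factors and other genes with oligopyrimidine messengers, 3 rose in WT (Hnrnpa1, Eef2 and Pabpc1) and 4 in Scnn1b-Tg (Hnrnpa1, Eef1g, Pabpc1 and Eif3l), and none fell. Hnrnpa1 had the largest change, by 0.57 ± 0.07 and 0.71 ± 0.07, and the median changes of the list were 0.08 and 0.12. Fau and Rack1, which belong to the ribosome and lie outside the rule, had no call.

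The protein genes of the mitochondrial ribosome were also read beside the members. Of these 77 genes, 4 rose and 5 fell in WT, where 15.5% of all genes rose and 16.2% fell. In Scnn1b-Tg 12 rose and 2 fell, where 19.3% of all genes rose and 18.7% fell. Their median changes were -0.06 and 0.03, against 0.17 and 0.13 for the members. The median deviation of the mitochondrial genes was also lowest in the LPS libraries of the pools numbered 17, at -0.29 and -0.19. Genes named as ribosomal protein pseudogenes shared the members' pattern. Of 169 that were counted, 93 were tested, and 1 rose in each genotype, with median changes of 0.17 and 0.16. Their summed level was 291 to 375 CPM in medium and 288 to 427 CPM in LPS, and whether their reads came from the parent genes was not tested.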

How the data were processed

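AM libraries were made with a low-input full-length cDNA kit and sequenced as 125-base read pairs. The authors aligned reads to mm10 with HISAT2, without strand, assembled them with StringTie on GENCODE M20 and deposited the resulting estimated counts, whole numbers with no normalization (1 read is worth about 2.5 counts). Symbols, lengths and exon overlaps came from GENCODE M21 on the same build.

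Genes were filtered (filterByExpr, minimum count 10, total 15) and TMM-scaled. edgeR 4.0.16 quasi-likelihood models (legacy set to FALSE) had a term per group and batch over all 12 libraries, with two-sided tests and Benjamini-Hochberg adjustment over 13729 genes. The newer quasi-likelihood method was kept after the totals of called genes under both methods were seen, because earlier processing of these data used it. limma 3.58.1 and DESeq2 1.42.0 served as alternatives. The code was tested on simulated counts with known changes. The members and gene lists were chosen with earlier results of these data known. Named members were, per comparison, up to 6 largest rises and falls among those called, the 4 highest and 4 lowest per length and a fixed set of known members, and from other lists the 3 called genes with the largest change.

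Within a genotype, libraries with the same pool number deviated from their group means together (correlation over genes 0.21 to 0.50 in all 6 pools). The shared number in the labels pairs them too. The reported model held no pool term, so its tests did not use this pairing. It was used in the differences within pools and in the settings with the pool as a block. With batch removed as well the correlations were -0.20 to 0.36. Nothing in the labels gives more than these pools as replicates. No 2 libraries held identical counts. A few genes are not reported here by name and are kept in counts and medians.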

Additional observations from a re-analysis of the deposited data

How the results depend on the processing

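Rpl24 rose in both genotypes under all 29 other settings tried. No setting gave a call between genotypes or in the interaction for any member. Calls of other named members changed side in part of the settings, by 85 gains and 59 losses, and none reversed while called. Settings chosen after seeing the data are the length covariate, the libraries numbered 17, the older quasi-likelihood method, the counts added to Rpl24 and the coding length. The cause of each change was not tested unless the setting itself tests fewer genes or samples.

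Members called with LPS numbered 2 in WT and 7 in Scnn1b-Tg. They numbered 1 and 3 with library totals only and with upper-quartile factors, 1 in WT without a batch term and 1 and 13 with only the 2 groups compared. Among the 78 canonical members they numbered 1 and 4, and among the 46 members without exon overlap 1 in WT. Of all genes, 32.9% and 39.7% were called with library totals and 32.6% and 38.7% with upper-quartile factors. The share was 25.2% in WT without a batch term and 25.7% and 40.2% with only the 2 groups compared. With the replicate block (pool, fixed) the called members numbered 10 and 19, and with the pool as a random block 6 in WT, against 38.6% of all genes there. Without the 4 libraries numbered 17 they numbered 7 and 14. With the median of the short non-members as a covariate they numbered 44 and 53, with that median centred by group 31 and 33, and with the covariate and the replicate block together 40 and 48, of which 34 rose in both genotypes. Of all genes, 31.8% and 38.1% were called in the reported model in WT and Scnn1b-Tg, 38.1% and 44.4% with the fixed block, 24.2% and 32.3% without the libraries numbered 17, 40.2% and 46.5% with the covariate, 40.7% and 47.0% with it centred, and 39.9% and 44.2% with covariate and block. The older quasi-likelihood method called 2 and 6 members, and 30.9% and 36.7% of all genes. Leaving out 1 library at a time gave 1 to 12 calls in WT and 2 to 10 in Scnn1b-Tg. In these fits 23.7% to 31.1% of all genes were called in WT and 30.4% to 39.2% in Scnn1b-Tg. The WT count was 12 without WT LPS 17 and 1 without WT medium 18, WT LPS 16 or 18, Scnn1b-Tg medium 17, 18 or 19 or Scnn1b-Tg LPS 17. The Scnn1b-Tg count was 2 without Scnn1b-Tg medium 19 or LPS 18, 3 without Scnn1b-Tg medium 17, and 4 without WT LPS 18 or Scnn1b-Tg LPS 17 or 19. The same fits gave medians of -0.03 to 0.33 and 0.01 to 0.24, and in the genotype comparisons medians of -0.22 to 0.06 in medium and -0.28 to 0.05 in LPS. The replicate block changed no call in the interaction, nor did the number alone in the genotype comparisons.

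Without the 20 non-members with the most counts, the members' share was 1.43% in WT medium, 1.46% in WT LPS, 1.41% in Scnn1b-Tg medium and 1.41% in Scnn1b-Tg LPS. In the order per length, 3 of the 4 highest remained with merged exon length or coding length.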
